A study of Mus musculus with 12 samples.

Results

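The 9 genes described here encode calmodulin (Calm2 and Calm3) and kinases that calmodulin switches on: Camk1 and Camk1d of the CaM kinase I group, Camk2b, Camk2d and Camk2g of the CaM kinase II group, and the kinase kinases Camkk1 and Camkk2. They were chosen by gene symbol from the 43322 genes of the deposited count table, and all 9 were found in it and passed the filter on low counts. Poly-A RNA had been sequenced from primary cortical glial cultures of wild-type CD1 mice of postnatal days 3 to 5, which the submitters label as astrocytes. The labels describe cultures started from the frontal cortices of a single mouse, grown with serum and 10 ng/ml epidermal growth factor, split at day 7 in vitro, and used 3 to 7 days later. The 3 groups held 4 libraries each: vehicle control, 3 µM thapsigargin for 60 min, which blocks the SERCA pumps and so empties the calcium store of the endoplasmic reticulum, and 60 min without external calcium, with the chelator EGTA in the medium per the treatment protocol. All groups shared genotype, age range and culture conditions. The labels do not tie libraries to animals, so the p-values measure the spread between libraries that the series text calls biological replicates.

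Calmodulin is a small calcium sensor with EF-hand motifs. When it binds calcium it wraps around and activates many enzymes, the CaM kinases among them. CaM kinase kinases phosphorylate CaM kinase I and, for the Camkk2 product, also the energy sensor AMPK, while CaM kinase II forms large rings that phosphorylate themselves and stay active after the calcium signal has passed. In brain, the beta form of CaM kinase II is best known from neurons, whereas the gamma and delta forms are found in many cell types.

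Calm2 and Calm3 are known for encoding the same protein from different chromosomes. The start of both coding sequences is shown because reads can be told apart only where the letters differ (GENCODE vM21 transcripts, GRCm38, coding bases 1 to 150, 5′ to 3′, with the 23 bases that differ in capitals).
Calm2: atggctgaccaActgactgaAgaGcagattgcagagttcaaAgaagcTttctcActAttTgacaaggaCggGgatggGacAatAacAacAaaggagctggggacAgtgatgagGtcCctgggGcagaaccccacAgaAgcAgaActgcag
Calm3: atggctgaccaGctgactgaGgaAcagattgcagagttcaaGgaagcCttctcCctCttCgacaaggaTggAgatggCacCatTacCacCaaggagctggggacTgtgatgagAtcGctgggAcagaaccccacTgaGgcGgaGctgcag
Over the full 447 coding bases the pair was 82.6% identical, with 78 differing bases, of which 74 stood at the last position of a codon. All 76 codons that differed were synonymous. The longest identical run was 17 bases. The deposited counts were not whole numbers in 11 of 12 libraries for Calm2 and in 9 for Calm3, against 0 to 2 libraries for each of the kinases. The origin of these fractions is not known, and the values of the calmodulin genes are uncertain to that extent.

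Library totals ran from 36.19 to 42.57 M counts. In every group replicate 4 differed from replicates 1 to 3. Its 3 libraries held 588 to 740 CPM of Xist, an RNA made by the inactive X chromosome, and no other library held more than 0.319 CPM (CPM are counts per 1 M, with normalised library sizes). Summed vascular and fibroblast markers reached 367 to 557 CPM in replicate 4 and 1161 to 1518 CPM elsewhere. The labelled cell type was checked against its markers. The glutamate transporter gene Slc1a3 ranged over 2079 to 2953 CPM, and the neuronal genes Rbfox3, Snap25 and Slc17a7 did not exceed 0.653 CPM in any library, while the 9 neuronal markers listed summed to 345 to 436 CPM. Summed markers of the oligodendrocyte lineage were at 1641 to 2091 CPM, against 7227 to 9234 CPM for astrocyte markers. Summed proliferation markers were at 1418 to 1923 CPM.

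The calmodulin genes gave by far more RNA per length than the kinases. Levels are compared between genes only as RPKM (CPM per kb of the exon length in the file), and the order in controls was Calm2 at 318 ± 27.9, Calm3 at 308 ± 8.34, Camk1 at 60.8 ± 2.27, Camk2g at 17.8 ± 1.64, Camk2d at 13.9 ± 0.551, Camk2b at 10.4 ± 1.01, Camkk2 at 6.93 ± 0.315, Camk1d at 3.99 ± 0.25 and Camkk1 at 0.897 ± 0.0814 (SD, n = 4). Only the Calm2 and Calm3 ranges overlapped between neighbours of this order in control. The kinase order was the same in all 3 groups. With thapsigargin Calm2, at 241 ± 16.9 RPKM, stood below Calm3, at 271 ± 5.75 RPKM, and the 4 libraries of the one did not overlap those of the other. The margin was narrow, with the highest Calm2 library at 266.1 RPKM and the lowest Calm3 library at 267.0 RPKM.

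**Figure D1:**
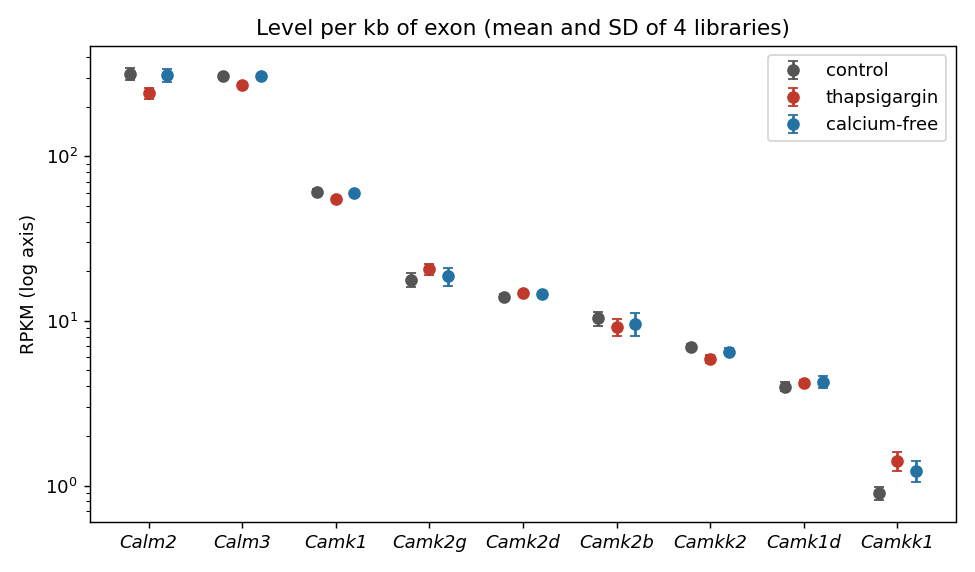
Mean RPKM of the 9 genes in control, thapsigargin and calcium-free libraries on a log axis, ordered by the control level, with SD over 4 libraries as bars. The calmodulin genes lie between 241 and 318 RPKM, Camk1 between 54.8 and 60.8, and the other kinases at 20.7 or below.

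Thapsigargin lowered the calmodulin genes, Camk1 and Camkk2 and raised Camkk1. In the edgeR quasi-likelihood test over 17077 genes, 5 of the 9 members passed an adjusted p of 0.05, 1 higher and 4 lower, in a comparison in which 31.2% of all tested genes were called (16.4% higher, 14.8% lower). The median log2 fold change of the members was -0.15, against -0.05 over all tested genes. A fit that blocked on the replicate number called 3 higher and 5 lower, where it called 51.2% of all tested genes. The fit without the 3 libraries of replicate 4 gave the same counts, where it called 7745 of 17004 genes. Summed astrocyte markers were at 8094 to 9141 CPM in control and 7227 to 8275 CPM with thapsigargin, and summed microglia markers at 89.2 to 145 and 72.1 to 109 CPM, and their part in the members' values was not tested. In these bulk samples fewer cells of a type and less RNA per cell cannot be told apart.

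Calm2 (gene 12314, GRCm39 chromosome 17, 87740829 to 87754363, minus strand) was at 383, 373, 356 and 435 CPM in control replicates 1 to 4, at 287, 278, 284 and 324 CPM with thapsigargin and at 351, 369.6, 368 and 429 CPM in calcium-free medium. Every thapsigargin library was below every control and every calcium-free library, and replicate 4 was the highest library in each group. Calm2 fell by 24.2% with thapsigargin, a log2 fold change of -0.40 ± 0.08 (SE, edgeR adjusted p = 0.00169). Calm3 (gene 12315, chromosome 7, 16649304 to 16657957, minus strand) was at 688, 676, 700.3 and 657 CPM in control, at 617, 589.6, 595 and 591 CPM with thapsigargin and at 653, 674, 694 and 675 CPM in calcium-free medium. Its thapsigargin libraries also lay below all others, and it fell by 12.1% (log2 fold change -0.19 ± 0.03, edgeR adjusted p = 0.00115). Both calls held when any of the 12 libraries was left out (adjusted p up to 0.00734).

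The share of Calm2 in the length-scaled sum of Calm2 and Calm3 was 50.7 ± 2.77% in control and 47.1 ± 1.89% with thapsigargin (SD, n = 4). In calcium-free medium it was 50.5 ± 2.07%. The ranges of control (48.0 to 54.6%) and thapsigargin (45.8 to 49.9%) overlapped, while within each replicate number the thapsigargin library was the lower. This share was not tested.

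Among the CaM kinase I genes, Camk1 was lower with thapsigargin and Camk1d did not pass the test. Camk1, which acts in the cytosol and needs phosphorylation by a CaM kinase kinase for full activity (gene 52163, chromosome 6, 113311085 to 113320883, minus strand), was at 90.3, 87.4, 88.2 and 82.6 CPM in control, at 77.4, 79.4, 80.0 and 77.3 CPM with thapsigargin and at 85.0, 87.6, 85.6 and 84.2 CPM in calcium-free medium. The thapsigargin libraries were below all others by a narrow margin, and the change was -9.85% (log2 fold change -0.15 ± 0.03, edgeR adjusted p = 0.00478). Without the filter on low counts it was not called (adjusted p = 0.0789), nor with the trend of exon length removed (log2 fold change -0.05, adjusted p = 0.326), an alternative described with the exon lengths. Camk1d (gene 227541, chromosome 2, 5298268 to 5719665, minus strand) was at 36.9, 36.3, 33.4 and 32.4 CPM in control, at 37.0, 37.4, 37.0 and 34.3 CPM with thapsigargin and at 35.6, 38.3, 40.8 and 34.3 CPM in calcium-free medium. The groups overlapped, and edgeR gave log2 fold changes of 0.07 ± 0.06 with thapsigargin (adjusted p = 0.465) and 0.10 ± 0.06 in calcium-free medium (adjusted p = 0.487).

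**Figure D2:**
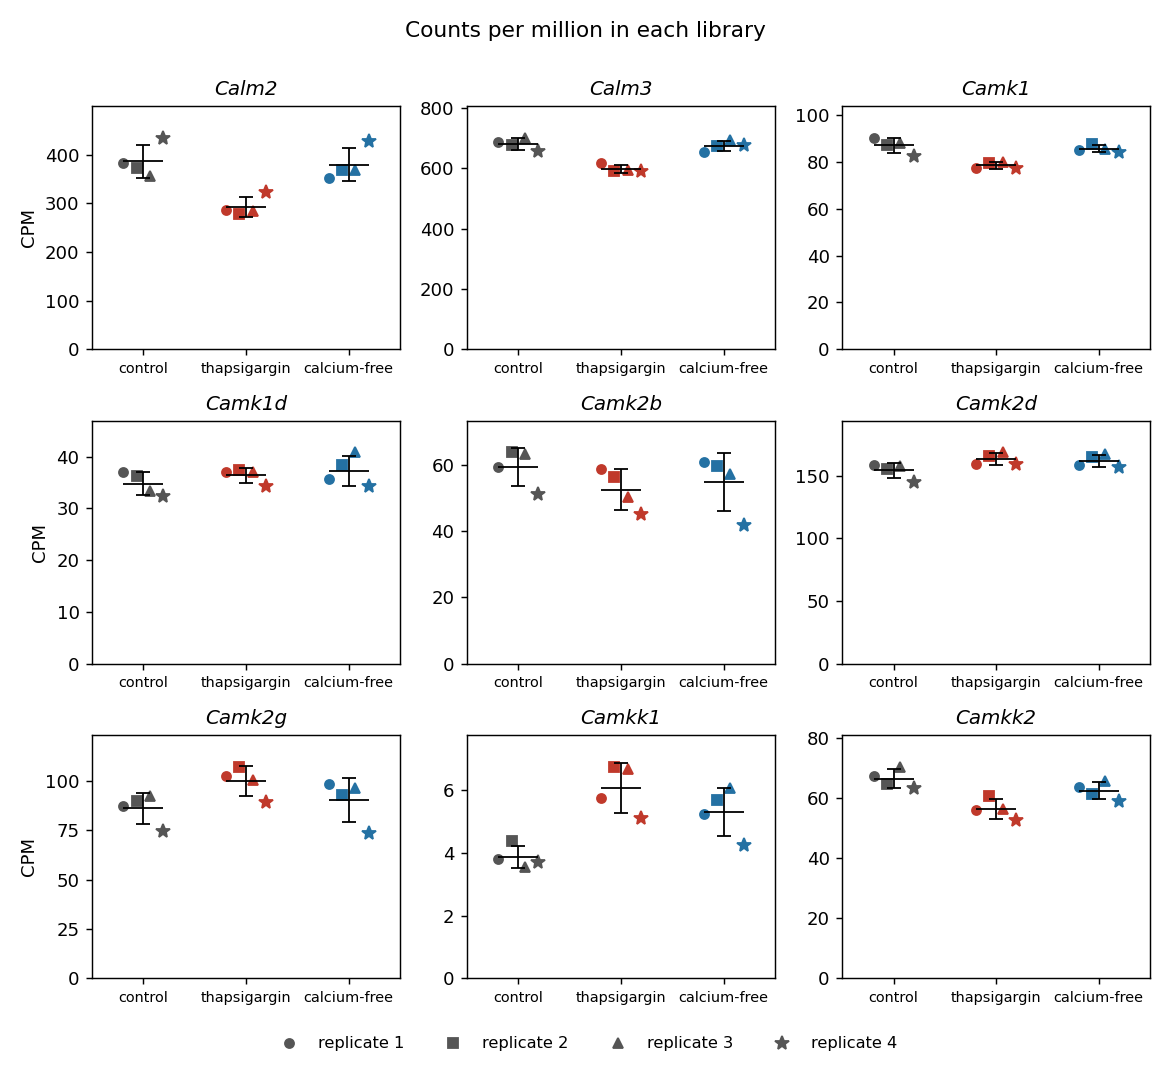
CPM of each gene in each of the 12 libraries (1 panel a gene, axis from 0; marker shape gives the replicate number, the bar the mean and SD of 4 libraries). Thapsigargin libraries lie below all controls for Calm2, Calm3, Camk1 and Camkk2 and above all controls for Camkk1 and Camk2d. Replicate 4 is the lowest control for every gene but Calm2 and Camkk1.

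The CaM kinase II genes moved by little and in different directions, and none passed the unblocked edgeR test with thapsigargin. Camk2g (gene 12325, chromosome 14, 20784941 to 20844225, minus strand) was at 87.6, 90.1, 92.4 and 74.6 CPM in control, at 102.6, 107, 100.7 and 89.5 CPM with thapsigargin and at 98.7, 93.1, 96.2 and 73.8 CPM in calcium-free medium. Replicate 4 was the lowest library of every group, so the ranges of control and thapsigargin overlapped although thapsigargin was higher within each of the 4 numbers. Its log2 fold change was 0.21 ± 0.09 (edgeR adjusted p = 0.108). With the replicate block it was called (0.22 ± 0.04, edgeR adjusted p = 8.14e-05), as it was without the 3 libraries of replicate 4 (0.24, adjusted p = 4.3e-05) and without calcium-free replicate 4 alone (adjusted p = 0.0343).

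Camk2d (gene 108058, chromosome 3, 126389136 to 126639975, plus strand) was at 158.9, 155, 157 and 145 CPM in control, at 159.6, 165.5, 169 and 159.2 CPM with thapsigargin and at 158.9, 165, 167 and 157 CPM in calcium-free medium. All thapsigargin libraries were above all controls, by less than 1 CPM at the closest pair, and the log2 fold change of 0.08 ± 0.04 did not pass (edgeR adjusted p = 0.14). The adjusted p was 0.0187 with the replicate block, 0.00735 without the libraries of replicate 4 and 0.0464 in DESeq2. With the exon-length trend removed the value was -0.02 (adjusted p = 0.793).

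Camk2b (gene 12323, chromosome 11, 5919642 to 6016401, minus strand) was at 59.5, 63.8, 63.2 and 51.2 CPM in control, at 58.7, 56.4, 50.2 and 45.1 CPM with thapsigargin and at 60.8, 59.6, 57.2 and 41.9 CPM in calcium-free medium. The groups overlapped, replicate 4 was the lowest library in each, and the thapsigargin library was below the control of the same number in 4 of 4 cases. The log2 fold change was -0.18 ± 0.12 (edgeR adjusted p = 0.309), with adjusted p = 0.00615 under the replicate block and 0.0461 without the libraries of replicate 4. Neuronal markers, summed over the 9 genes listed, were at 389 to 410 CPM in control and 345 to 373 CPM with thapsigargin, 5 of the 9 averaged below 1 CPM, and their part in the Camk2b values was not tested.

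Within the length-scaled sum of Camk2b, Camk2d and Camk2g, which leaves out the alpha gene Camk2a, the Camk2b share was 24.6 ± 0.70% in control and 20.5 ± 1.40% with thapsigargin, and the 4 libraries of each did not overlap (23.8 to 25.4% and 19.3 to 22.3%). The Camk2g share was 42.2 ± 0.81% and 46.3 ± 0.73%, again without overlap (41.1 to 43.1% and 45.4 to 47.2%). The Camk2d share stayed at 33.2 ± 1.42% and 33.2 ± 1.82%. In calcium-free medium the shares of Camk2b and Camk2d were 22.2 ± 1.64% and 34.3 ± 2.98% (SD, n = 4) and that of Camk2g 43.5%, from 41.5 to 45.0%, and those of Camk2d and Camk2g overlapped the controls. All calcium-free values of Camk2b (19.9 to 23.4%) were below the control range. These shares were not tested.

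**Figure D3:**
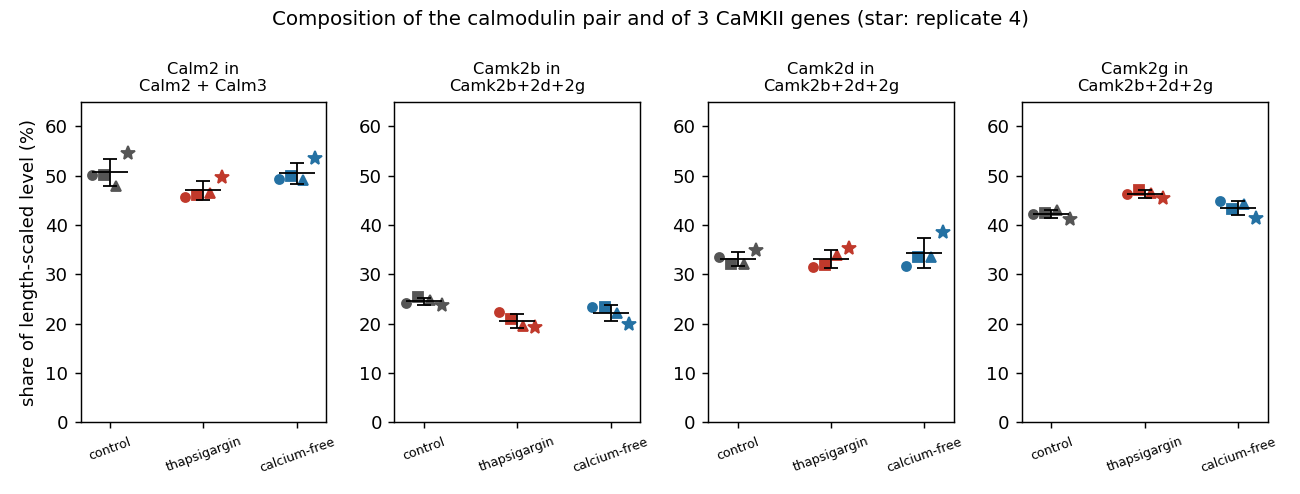
Share of Calm2 in the calmodulin pair and of each gene in the sum of Camk2b, Camk2d and Camk2g, as percent of the length-scaled level, per library and group with mean and SD (n = 4). The Camk2g share is 45.4 to 47.2% with thapsigargin and 41.1 to 43.1% in control, and the Camk2b share is lower.

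The kinase kinases moved in opposite directions. Camkk1 (gene 55984, chromosome 11, 72906869 to 72932899, plus strand) had the fewest counts, 131 to 296 a library. It was at 3.81, 4.37, 3.57 and 3.72 CPM in control, at 5.75, 6.75, 6.69 and 5.11 CPM with thapsigargin and at 5.24, 5.68, 6.06 and 4.26 CPM in calcium-free medium. The thapsigargin libraries were all above the controls, 1.57-fold on average (log2 fold change 0.65 ± 0.13, edgeR adjusted p = 0.00191), and the call held when any library was left out (adjusted p up to 0.00814). Camkk2 (gene 207565, chromosome 5, 122856064 to 122918295, minus strand), whose product also acts on AMPK, was at 67.2, 64.7, 70.2 and 63.3 CPM in control, at 55.9, 60.6, 56.3 and 52.6 CPM with thapsigargin and at 63.4, 61.2, 65.6 and 58.9 CPM in calcium-free medium. Its thapsigargin libraries were all below the controls, with a change of -15.1% (log2 fold change -0.24 ± 0.05, edgeR adjusted p = 0.00367). Camkk2 stayed the more abundant of the pair in every group, at 5.88 ± 0.341 RPKM against 1.41 ± 0.183 RPKM with thapsigargin (SD, n = 4).

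The promoters of Camkk1 and Camkk2 are shown because these 2 kinase kinase genes moved in opposite directions (RefSeq, GRCm38.p6, 250 bases before to 50 after the start, 5′ to 3′ along the gene). Camkk1 lies at chr11:73018738-73019037 on the plus strand and Camkk2 at chr5:122779361-122779660 on the minus strand of that build. Capitals mark CCAAT, a box bound by NF-Y, and TGACG, the core of the CREB site, each searched on both strands; no match of one overlapped a match of the other.
Camkk1: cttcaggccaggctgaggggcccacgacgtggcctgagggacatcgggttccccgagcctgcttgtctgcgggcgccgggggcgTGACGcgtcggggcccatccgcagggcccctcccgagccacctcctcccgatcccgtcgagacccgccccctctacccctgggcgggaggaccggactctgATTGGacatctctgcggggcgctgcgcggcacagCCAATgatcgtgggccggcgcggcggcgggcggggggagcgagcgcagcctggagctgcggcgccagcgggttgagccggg
Camkk2: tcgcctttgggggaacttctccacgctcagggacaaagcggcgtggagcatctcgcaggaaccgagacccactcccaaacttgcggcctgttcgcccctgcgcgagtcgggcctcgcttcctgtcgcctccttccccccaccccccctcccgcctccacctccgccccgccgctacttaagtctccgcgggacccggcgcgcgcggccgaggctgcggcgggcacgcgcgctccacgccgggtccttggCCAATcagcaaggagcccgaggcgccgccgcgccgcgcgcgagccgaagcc
The Camkk1 sequence held 2 CCAAT matches and 1 TGACG match, and the Camkk2 sequence held 1 CCAAT match. Of all 32851 promoter windows of this length in the table, 37.4% held CCAAT and 20.8% held TGACG. Windows were found for 7 of the 9 members, 8 windows in all, of which 3 held CCAAT and 3 held TGACG. A match describes the letters and not a bound site.

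Calcium-free medium left the members closer to control. None of the 9 was called by edgeR, where it called 5.33% of all tested genes (3.78% higher, 1.55% lower), and 1 had an unadjusted p under 0.05 (Camkk1). DESeq2 called 1, the same gene, where it called 1478 of 16982 genes. The members' median log2 fold change was -0.01, as over all tested genes. Camkk1 was above the control of the same number in 4 of 4 cases, at 5.31 ± 0.775 against 3.87 ± 0.351 CPM (SD, n = 4), with overlap of 1 calcium-free library with the control range. Its log2 fold change of 0.46 ± 0.13 had an edgeR adjusted p = 0.0618, which was 0.0018 with the replicate block (17.4% of all tested genes called), 0.0148 in DESeq2 and 0.0023 without the 3 libraries of replicate 4. Leaving out thapsigargin replicate 4 or calcium-free replicate 4 alone gave adjusted p = 0.0451 and 0.0225. The log2 differences of the calmodulin genes were -0.03 ± 0.08 for Calm2 (edgeR adjusted p = 0.952) and -0.01 ± 0.03 for Calm3 (adjusted p = 0.941). The other members lay between -0.11 and 0.10.

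**Figure D4:**
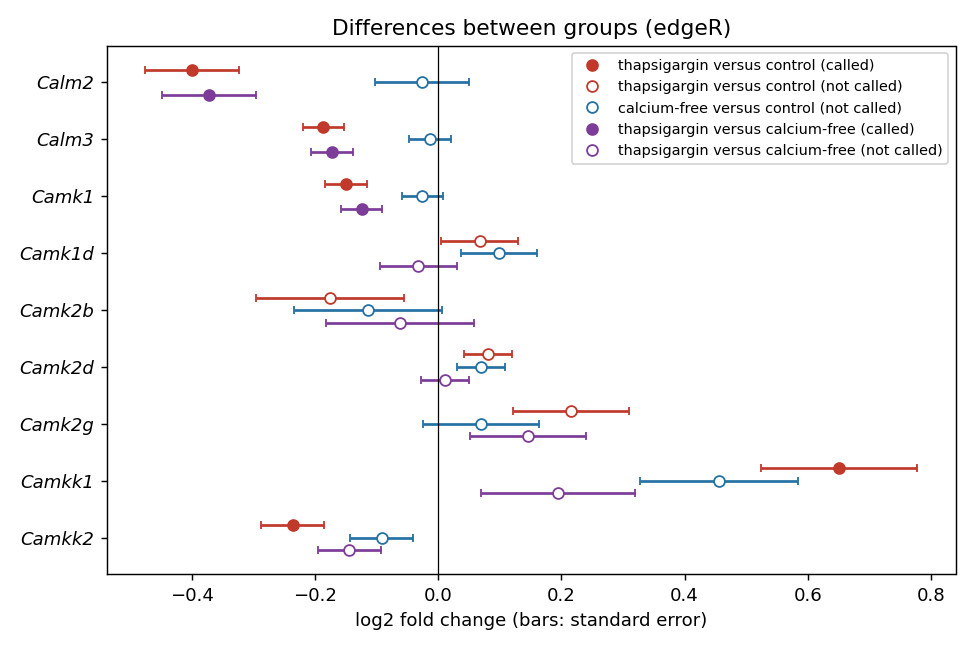
Log2 fold change of each gene in the 3 comparisons, with standard errors as bars; filled points passed an adjusted p of 0.05 in edgeR. Filled points are 5 for thapsigargin versus control, 0 for calcium-free versus control and 3 for thapsigargin versus calcium-free medium.

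Compared directly, thapsigargin and calcium-free medium differed in 3 of the 9 members, all lower with thapsigargin, where 27.9% of all tested genes were called (14.6% higher, 13.2% lower). The median of the members was -0.06, against -0.02 over all tested genes. These were Calm2 at -0.37 ± 0.08 (edgeR adjusted p = 0.00335), Calm3 at -0.17 ± 0.03 (adjusted p = 0.00251) and Camk1 at -0.12 ± 0.03 (adjusted p = 0.0159). Camk1 was not called without calcium-free replicate 2 (adjusted p = 0.0546), without the filter on low counts (0.19) or with the exon-length trend removed (0.178). With the replicate block 1 was higher and 4 were lower, where it called 49.4% of all tested genes. The added calls were Camk2g at 0.15 ± 0.04 (edgeR adjusted p = 0.00237; 0.29 without the block) and Camkk2 at -0.14 ± 0.04 (0.0034; 0.0532 without the block). Camkk2 was also called without control replicate 4 (0.0471), thapsigargin replicate 2 (0.0263) or calcium-free replicate 4 (0.049), and with the exon-length trend removed (0.0203). Camkk1 was higher with thapsigargin within each number, by 0.19 ± 0.13, and this difference did not pass (adjusted p = 0.285).

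The size of the thapsigargin changes went along with exon length over the whole table. The median log2 fold change of all tested genes was -0.12 for 2709 genes with 1 to 2 kb of exon, -0.07 at 2 to 3 kb, -0.01 at 4 to 6 kb and 0.06 for 1532 genes at 8 to 12 kb. The short members Calm2 (1.22 kb), Camk1 (1.43 kb) and Calm3 (2.21 kb) fell. Camk2d (11.1 kb) and Camk1d (8.72 kb) had small positive values, whereas Camkk2 (9.58 kb) fell against that trend. Camkk1 (4.31 kb) rose by 0.65, where the median at 4 to 6 kb was -0.01. With the trend of each library on exon length removed, the log2 fold changes were -0.28 for Calm2 (edgeR adjusted p = 0.0125), -0.15 for Calm3 (0.00574), -0.33 for Camkk2 (0.000461), 0.63 for Camkk1 (0.00255) and -0.05 for Camk1 (0.326). The part of exon length in each value beyond this was not tested. In calcium-free medium the medians ran from -0.04 at 1 to 2 kb to 0.05 at 8 to 12 kb.

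**Figure D5:**
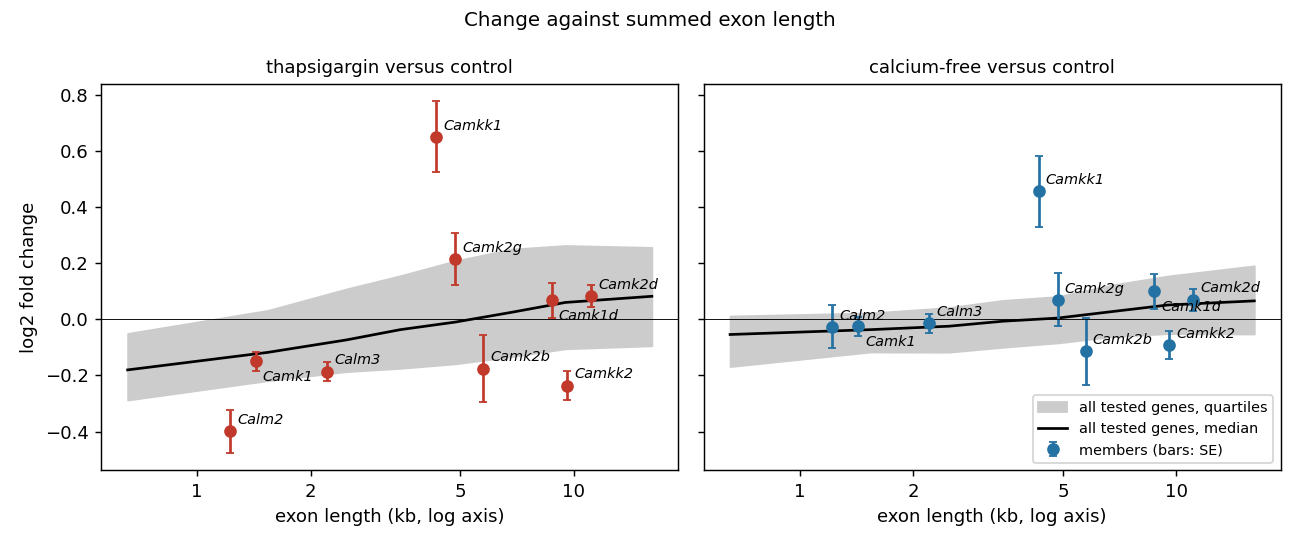
Log2 fold change against exon length in kb (log axis) for the 9 genes, with standard errors, over the median and quartiles of all tested genes in 8 length bins. With thapsigargin the median rises with length from -0.18 under 1 kb, and Camkk1 and, by a small margin, Camk2g lie above the quartiles of their length bin and Calm2, Camk2b and Camkk2 below them.

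Some members share their locus with other genes. The span of Camk1 overlaps Ogg1, a DNA repair gene, and that of Camkk2 overlaps P2rx4, an ATP-gated channel, each on the opposite strand, and the strand setting of the counting is not given in the sources used here. Ogg1 was at -0.04 ± 0.13 with thapsigargin and P2rx4 at -0.33 ± 0.14 (log2 fold changes, edgeR adjusted p = 0.853 and 0.0863). Ogg1 had 969 counts at most in a library, against at least 3064 for Camk1. P2rx4 had 541 counts at most in a library, against at least 2287 for Camkk2.

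The members Calm2, Calm3, Camk1, Camkk1 and Camkk2 differed among the 3 groups in the edgeR test of any difference, and for each the 3 genes with the most similar profile were taken by the root mean square difference of centred log2 CPM over the 12 libraries, among 11583 genes. Calm2 was nearest to Cd24a (0.0223), Ssr1 and Timm17a, and Calm3 to Anxa4 (0.0173), Cs and Lman2. Camk1 was nearest to Fam149a (0.0206), Sparc and Arl8b, and Camkk2 to Nudt11 (0.0373), Scamp2 and Ski. Camkk1 was nearest to Prkaa2 (0.0983), Akap17b and Znrf3. Prkaa2, a catalytic subunit of AMPK, had log2 fold changes of 0.65 with thapsigargin and 0.44 in calcium-free medium. These libraries share their groups and replicate numbers, so the distances are a description.

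Other genes of the pathway were followed as 3 lists, beside the same 31.2% of all genes called with thapsigargin. Of 22 tested relatives and partners of calmodulin and its kinases, 2 rose and 3 fell with thapsigargin (22.7% called), with a median log2 fold change of -0.16. DESeq2, which called 5490 of 15883 genes, gave the same counts. The block gave 2 higher and 9 lower, where it called 51.2% of all genes. The fit without the libraries of replicate 4, with 7745 of 17004 genes called, gave 2 higher and 8 lower. The higher genes were Strn at 0.40 ± 0.06 and Strn3 at 0.22 ± 0.05, scaffold proteins that bind calmodulin (edgeR adjusted p = 0.000271 and 0.003). Strn3 was not called with the exon-length trend removed (0.0539). Among the lower genes, Marcks, a calmodulin-binding membrane protein, was at -0.25 ± 0.05 and Ppm1f, a phosphatase that acts on CaM kinase II, at -0.19 ± 0.04 (edgeR adjusted p = 0.00277 and 0.00382).

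The other kinases and inhibitors of the family did not pass in the unblocked test with thapsigargin. Camk2a, the alpha form of CaM kinase II, best known from neurons, was at 14.4 ± 1.89 CPM in control, 13.6 ± 1.85 CPM with thapsigargin and 13.2 ± 3.03 CPM in calcium-free medium (SD, n = 4). Its groups overlapped, with log2 fold changes of -0.08 ± 0.17 and -0.12 ± 0.17 against control (edgeR adjusted p = 0.771 and 0.839). Camk4, a mainly nuclear CaM kinase, was at 6.59 ± 0.403, 6.45 ± 0.798 and 7.60 ± 0.753 CPM in the same order (edgeR adjusted p = 0.853 and 0.334 against control). Between thapsigargin and calcium-free medium it was at -0.24 ± 0.10, with an edgeR adjusted p of 0.108, and of 0.013 with the block.

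Camk1g, another CaM kinase I gene, averaged 4.09 ± 0.628 CPM in the controls and 4.77 ± 0.859 CPM under thapsigargin (SD, n = 4), with an edgeR adjusted p of 0.266. Against calcium-free medium the thapsigargin value was 0.30 ± 0.14 (0.14, and 0.0284 with the block). Pnck, a further CaM kinase I gene, was at -0.25 ± 0.22 with thapsigargin (edgeR adjusted p = 0.44). The CaM kinase II inhibitors Camk2n1 and Camk2n2 had log2 fold changes of -0.16 ± 0.09 (0.184, and 0.00535 with the block) and -0.17 ± 0.07 (0.0807, and 0.0362 with the block). Pcp4, a small regulator of calmodulin, was at -0.31 ± 0.19 (0.244, and 6.2e-06 with the block).

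In calcium-free medium, 2 of the 22 relatives were called, where 5.33% of all genes were. Strn3 rose by 0.25 ± 0.05 (edgeR adjusted p = 0.00805). Camta1, a calmodulin-binding transcription activator, was lower at -0.25 ± 0.06 (0.0293). The Camta1 call was lost without any one of control replicates 1 to 4 or calcium-free replicates 2 to 4 (edgeR adjusted p up to 0.0962). Between thapsigargin and calcium-free medium 2 relatives were higher and 4 lower (27.3%, where 27.9% of all genes were called), and 3 and 11 with the block, which called 49.4% of all genes.

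Of 32 tested enzymes that calmodulin binds, 2 rose and 3 fell with thapsigargin (15.6% called), with a median of -0.07. The block, with 51.2% of all genes called, gave 3 higher and 10 lower. Without the libraries of replicate 4, where 7745 of 17004 genes were called, there were 3 and 5. Itpkc, which phosphorylates inositol trisphosphate, rose from 5.34 ± 0.299 to 9.06 ± 0.294 CPM (SD, n = 4). Its log2 fold change was 0.76 ± 0.07 (edgeR adjusted p = 7.65e-06), and Rasgrf2, a Ras activator, rose by 0.44 ± 0.10 (0.00427). The adenylyl cyclase genes Adcy3 and Adcy1, whose products respond to calmodulin, were at -0.50 ± 0.07 (0.000199) and -0.36 ± 0.07 (0.00228). Phkb, a phosphorylase kinase subunit, was at -0.15 ± 0.04 (0.0222), a call lost without control replicate 1 or 2 or thapsigargin replicate 3 (0.0526 to 0.0584).

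In calcium-free medium 1 enzyme gene was higher and 1 lower (6.25% of 32, where 5.33% of all genes were called). Eef2k, the calmodulin-dependent kinase of translation elongation, was at -0.28 ± 0.05 (edgeR adjusted p = 0.00972). Rasgrf2 was at 0.38 ± 0.10 (0.0482), and its call was lost without any one of control replicates 1 to 4, thapsigargin replicates 2 to 4 or calcium-free replicates 2 and 3 (up to 0.148), and with the exon-length trend removed (0.069). The block gave 4 higher and 3 lower, where it called 17.4% of all genes. Between thapsigargin and calcium-free medium 3 enzyme genes were higher and 5 lower, where 27.9% of all genes were called, and the block gave 4 and 11, where it called 49.4%. Adcy1 was at -0.54 ± 0.07 in that comparison (edgeR adjusted p = 0.000206).

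Of 23 tested effectors of CaM kinases, 12 rose and 0 fell with thapsigargin (52.2% called), with a median of 0.16. DESeq2, which called 5490 of 15883 genes, also gave 12 and 0, and the block 15 and 1 (with 51.2% of all genes called). The fit with the exon-length trend removed, where 4800 of 17077 genes were called, gave 10 and 0. Crtc3, a coactivator of CREB, rose from 27.4 ± 0.961 to 44.9 ± 1.81 CPM (SD, n = 4). Its log2 fold change was 0.71 ± 0.05 (edgeR adjusted p = 7.82e-07). Mef2d, a transcription factor of the MEF2 family that CaM kinases help to activate, rose by 0.47 ± 0.04 (9.61e-06), and Prkaa2 by 0.65 ± 0.07 (3.32e-05).

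In calcium-free medium 7 of the 23 effectors rose and 0 fell (30.4%, where 5.33% of all genes were called), with a median of 0.09. The block gave 9 higher and 1 lower, where it called 17.4% of all genes. With the exon-length trend removed 4 were higher and 1 lower, counts given without that fit's share over all genes. Crtc3 was at 0.28 ± 0.05 (edgeR adjusted p = 0.0051) and Prkaa2 at 0.44 ± 0.07 (0.00516). Mef2d was at 0.19 ± 0.04 (0.0318), a call lost without control replicate 1 or 2, thapsigargin replicate 2 or 3, or calcium-free replicate 2 or 3 (0.0506 to 0.102), and with the exon-length trend removed (0.0813). Hdac4 was at 0.26 ± 0.06 (0.0222), a call lost without control replicate 1 or 2 or calcium-free replicate 2 or 3 (up to 0.0765). The call of Srf, at 0.38 ± 0.09 (0.0361), was lost without any one of control replicates 1 to 3, thapsigargin replicates 2 and 3 or calcium-free replicates 2 to 4 (up to 0.109). With the exon-length trend removed both were lost (0.0507 and 0.0531). Between thapsigargin and calcium-free medium 8 effectors were higher and 1 lower (39.1%, where 27.9% of all genes were called, 14.6% higher and 13.2% lower). The block gave 9 and 5, where it called 49.4% of all genes. Crtc3 was at 0.43 ± 0.05 in that comparison (edgeR adjusted p = 4.49e-05).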

How the data were processed

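Poly-A RNA of 12 libraries was measured. The tools listed in the submitters' processing notes are featureCounts 1.6.4, STAR 2.7.2b, cutadapt 1.17 and bcl2fastq 2.20.0.422, with the build GRCm39. The sources used here give neither their order nor the options or strand setting. The authors deposited expected counts per gene, of which 14.2% to 15.9% a library were not whole, and these were rounded before modelling. Genes were tested with edgeR 4.0.16 (R 4.3.3): TMM normalisation, filterByExpr at a minimum count of 10, robust quasi-likelihood, 1 mean per group over 12 libraries, Benjamini-Hochberg adjustment over 17077 genes, calls at 0.05. Standard errors were derived from the test statistic. DESeq2 1.42.0 was an alternative. Removing each library's trend on exon length, and the motifs searched, were chosen after seeing the data. The procedure was tested on simulated data with counts drawn independently around group means. These data held no differences between replicate numbers, so they could not test the effect of leaving out the block.

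The members and lists were chosen with earlier results of these data known. Named genes were the members, the 3 genes of each list with the strongest evidence of any difference among groups, and a fixed set of relatives, of which 1 gene is not reported here. Other called list genes were named after their values were seen.

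Groups share replicate numbers. Deviations from group means correlated between same-numbered libraries with r from 0.159 to 0.836 over genes, above 0.1 in all 12 pairs, so a fit with the number as a block is given beside the reported test, which has no block, where it changes a call. Replicate 4 gave 0.814 to 0.836. Numbers 1 to 3 gave 0.159 to 0.392, against 0.238 to 0.412 for different numbers. Replicates differed beyond sampling noise. Within a group, pairs among numbers 1 to 3 gave a chi-square per degree of freedom of 1.659 to 19.03. Pairs with replicate 4 gave 38.04 to 46.02. The precision is that of read counts, since no molecular identifiers are described.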

Additional observations from a re-analysis of the deposited data

Results flagged for a closer look

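In 27 groups of 4 CPM values and 12 groups of 4 shares, 2 held a library far from the other 3 by Dixon's ratio, where chance alone gives about 1 in 20. With thapsigargin, Camk1d was at 34.3 CPM in replicate 4 and at 37.0 to 37.4 CPM in the others. The Calm2 share of Calm2 and Calm3 was 49.9% in thapsigargin replicate 4 and 45.8 to 46.5% in the others. The part of the traits in which replicate 4 differs was not tested.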

How the results depend on the processing

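With edgeR, 5, 0 and 3 of the 9 members were called for thapsigargin versus control, calcium-free versus control and thapsigargin versus calcium-free medium. With the replicate block (pairing by number) these counts were 8, 1 and 5, and without all 3 libraries of replicate 4 they were 8, 1 and 4. DESeq2 called 6, 1 and 3. Leaving out single libraries gave 5 to 6, 0 to 1 and 2 to 4. With the block and the exon-length trend removed, counts were 6, 3 and 4, and the calcium-free calls beside Camkk1 were Camk2b at -0.14 (edgeR adjusted p = 0.0496) and Camkk2 at -0.15 (0.00946). The causes of these moves were not tested. No value called in the unblocked edgeR test changed direction under any alternative run. Camk2d with thapsigargin, not called there but called higher with the block, without replicate 4 and in DESeq2, was at -0.02 with the exon-length trend removed, with and without the block. The block raised the calls over all genes to 8737, 2968 and 8428. For thapsigargin versus control, the unblocked edgeR test called 5331 of 17077 genes, DESeq2 5490 of 15883 and the fit without replicate 4 7745 of 17004. Leaving out single libraries gave 4336 to 5750 calls over all genes, and the block with the exon-length trend removed gave 8225. For calcium-free versus control, the calls were 911 in the unblocked test, 1478 of 16982 in DESeq2 and 2659 of 17004 without replicate 4. For the comparisons that involve calcium-free medium, the single-library counts of members are given without a share over all genes. There the counts of the block with the exon-length trend removed also lack that share. So do the counts of thapsigargin versus calcium-free medium in DESeq2 and without replicate 4.

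Shares of raw counts, whose level differs by construction since no length scaling is applied, were, in the order control, thapsigargin and calcium-free medium, 36.2, 32.9 and 35.98% for Calm2 of the calmodulin pair. Within the CaM kinase II sum they were 19.8, 16.6 and 17.8% for Camk2b, 51.5, 51.7 and 52.9% for Camk2d, and 28.7, 31.6 and 29.4% for Camk2g.

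Depth limits Camkk1 most, with at most 296 counts a library. Whether replicates 1 to 3 were separate cultures is uncertain.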
